A study of Mus musculus with 30 samples.

Results

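The regions described here are short promoter regions that carried acetylated lysine 27 of histone H3 (H3K27ac) in every condition of the study. Overlapping or touching H3K27ac peaks of the 4 deposited lists were merged on 19 autosomes and chromosome X. A merged region was kept when it held a peak of each list, was under 4000 bp wide and came within 1 kb of a transcription start site (TSS) of the GENCODE annotation, mouse build mm10. This gave 7776 of 37671 merged regions. The regions were selected on measured values, namely the presence of a peak in all lists and the merged width, so that both are a description and not a result. Of the 12885 regions with a peak in all 4 lists, 4512 others under 4 kb lay farther from every TSS (constant distal regions) and 296 promoter regions were 4 kb wide or wider (broad promoter regions). A further 5028 promoter regions under 4 kb held a peak in fewer than 4 lists (partial promoter regions).

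The series holds 30 samples in 12 groups, of which 9 are H3K27ac samples. CK1750 and Tnm2 are mouse lung adenocarcinoma cell lines, grown in DMEM with fetal bovine serum. Each line received the solvent DMSO or 1 µM UNC0638, which blocks G9a and Glp, the enzymes that methylate lysine 9 of histone H3, and chromatin was immunoprecipitated with antibody ab4729. There were 3 H3K27ac samples of DMSO-treated CK1750 cells and 2 of each other group. Which of them entered each list is not given in the sources used here, and the methods state more replicates than the labels show. Both CK1750 UNC0638 samples carry the same replicate number, and 1 of the CK1750 DMSO samples is a second sequencing run. The labels give neither the genotype of the lines nor the length of the treatment. Each group was deposited as 1 merged peak list, so no spread between replicates exists, no difference between groups could be tested, and depth is unknown. Intervals below are 95% intervals that cover counting error only. For medians they give the uncertainty of the median over regions, not the range in which the regions lie. Where 4 values follow each other, those of CK1750 come before those of Tnm2, and in each line the DMSO list comes first.

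H3K27ac is laid down by the acetyltransferases p300 and Cbp on nucleosomes that flank active promoters and enhancers, and is removed by histone deacetylases. Many mammalian promoters lie in CpG islands, stretches of DNA that escaped the loss of CG dinucleotides. Such promoters drive genes that most cells use, and transcription factors of the Sp, NF-Y, Ets, Nrf1, Yy1 and Creb families bind short motifs close to their starts. TATA boxes are a feature of a minority of promoters, often those with tissue-restricted activity.

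The DNA just upstream of a start carries the motifs by which these promoters are known. For 9 of them the 150 bases upstream of the annotated gene start are shown, 5′ to 3′ on the gene's strand, read from the RefSeq genome GRCm38.p6, which has the coordinates of mm10. None of these stretches overlaps an annotated exon. Capitals mark every match to the named motif on either strand. The first group shows the GC box (GGGCGG), the CCAAT box (CCAAT), the Ets core (CCGGAAG) and the Nrf1 core (GCATGCGC). Each is shown in a strong region of a listed gene that holds it, which is not always the strongest. The Ep300 stretch also holds a CCAAT box, not marked, and its region ranks above that of Kat5 by strength (21 against 136). Ep300 encodes p300, a writer of the mark itself (chr15:81585201-81585350, plus strand). Kat5 encodes the acetyltransferase Tip60 (chr19:5610238-5610387, minus strand). Eif3d encodes a subunit of translation initiation factor 3 (chr15:77970814-77970963, minus strand), and Atg10 encodes an enzyme of autophagosome formation (chr13:91223969-91224118, minus strand).
Ep300: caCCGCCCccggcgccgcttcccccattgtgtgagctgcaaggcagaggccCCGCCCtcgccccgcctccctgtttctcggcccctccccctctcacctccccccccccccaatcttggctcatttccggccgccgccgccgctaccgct
Kat5: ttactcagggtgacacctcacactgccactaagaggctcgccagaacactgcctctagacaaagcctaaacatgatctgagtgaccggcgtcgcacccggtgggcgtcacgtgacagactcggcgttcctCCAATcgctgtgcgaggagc
Eif3d: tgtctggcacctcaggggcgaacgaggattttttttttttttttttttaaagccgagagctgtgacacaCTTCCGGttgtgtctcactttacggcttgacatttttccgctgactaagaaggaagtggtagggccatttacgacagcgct
Atg10: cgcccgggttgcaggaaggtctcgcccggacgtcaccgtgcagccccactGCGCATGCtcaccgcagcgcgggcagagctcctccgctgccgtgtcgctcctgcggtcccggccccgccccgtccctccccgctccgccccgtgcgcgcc

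The second group shows the Yy1 core (AAGATGGC), the cyclic AMP response element or CRE (TGACGTCA), the E-box (CACGTG) and the site of Zbtb33 (TCTCGCGA). Here too the region shown is not always the strongest that holds the motif. The Kat5 and Zfp207 stretches also hold an E-box, not marked, and the Kat5 region ranks above that of Eif3a (136 against 241). Zfp207 encodes a zinc finger protein of the mitotic spindle (chr11:80383129-80383278, plus strand). Zfp335 encodes a zinc finger transcription factor (chr2:164911758-164911907, minus strand). Eif3a and Eif5 encode translation initiation factors (chr19:60790659-60790808, minus strand; chr12:111537866-111538015, plus strand).
Zfp207: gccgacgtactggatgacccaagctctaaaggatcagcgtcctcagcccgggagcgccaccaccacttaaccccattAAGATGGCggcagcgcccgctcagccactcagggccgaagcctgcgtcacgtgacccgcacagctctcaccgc
Zfp335: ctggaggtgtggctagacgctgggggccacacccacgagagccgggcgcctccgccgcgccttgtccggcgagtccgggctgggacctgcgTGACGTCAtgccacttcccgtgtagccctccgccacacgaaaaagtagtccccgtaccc
Eif3a: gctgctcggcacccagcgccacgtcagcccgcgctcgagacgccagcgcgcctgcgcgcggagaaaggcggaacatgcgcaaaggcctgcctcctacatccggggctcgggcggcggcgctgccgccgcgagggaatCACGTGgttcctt
Eif5: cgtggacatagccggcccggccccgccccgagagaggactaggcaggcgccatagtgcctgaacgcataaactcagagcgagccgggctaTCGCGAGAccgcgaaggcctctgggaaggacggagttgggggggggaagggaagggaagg

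The last stretch shows a motif that is not typical of CpG islands, the TATA box (TATAAA), in the strongest region not rich in CpG with this motif from 40 to 20 bases upstream. Polr2a encodes the largest subunit of RNA polymerase II (chr11:69758638-69758787, minus strand). The stretch holds 17 CG dinucleotides, within the range of 8 to 23 of the other stretches shown, although the region as a whole is not rich in CpG.
Polr2a: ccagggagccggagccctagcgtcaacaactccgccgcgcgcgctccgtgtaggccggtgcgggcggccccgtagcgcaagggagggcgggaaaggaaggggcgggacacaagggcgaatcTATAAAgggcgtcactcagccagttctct

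Motifs were counted in the promoters of all 21755 protein-coding genes, from 250 bases upstream to 50 bases downstream of the gene start, on both strands. None of the 12 motifs searched contains another. A protein-coding gene was assigned to the short constant promoter regions when any of its TSS windows met one, which held for 7914 genes (36.4% of all). The start whose sequence was read need not be the one that met the region. The GC box occurred in 61.6% of the promoters of these genes (60.5 to 62.7%), against 43.4% of all promoters and 24.7% (23.8 to 25.5%) of the 10506 promoters with no peak within 1 kb of a TSS. The Ets core occurred in 19.5% (18.7 to 20.4%), against 10.9% of all promoters and 3.33% of those without a peak. The TATA box went the other way, with 6.82% (6.29 to 7.40%) against 12.7% of all promoters and 18.3% (17.5 to 19.0%) of those without a peak. In the narrow stretch from 40 to 20 bases upstream, where a TATA box is bound, the shares were 0.746% and 3.72%. The CCAAT box differed less, at 36.8% against 39.2% without a peak, and was most frequent in promoters with a peak in fewer than 4 lists, at 43.1% (41.4 to 44.9%).

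Base composition moved with this contrast, and its part in it was not tested over all promoters. In these windows 69.4% of the promoters with a short constant region were rich in CpG (GC content of at least 50% and an observed over expected CpG ratio of at least 0.6), against 16.7% of those without a peak. The motifs were also counted among CpG-rich promoters alone, which compares 5492 genes with such a region, 1683 with a peak in fewer than 4 lists and 1753 without a peak. Within these the GC box was about as frequent in the first group, at 75.1% (73.9 to 76.2%), as in the last, at 74.5% (72.4 to 76.5%), with 79.0% (77.0 to 80.9%) in between. The CCAAT box was at 35.7% in the first and the last group and at 44.9% (42.6 to 47.3%) in promoters with a peak in fewer lists. The Ets core separated the groups, at 23.7% (22.6 to 24.9%), 20.5% (18.6 to 22.5%) and 7.30% (6.17 to 8.62%). The Yy1 core followed the same order, at 6.26% (5.65 to 6.94%), 4.16% (3.31 to 5.22%) and 1.37% (0.922 to 2.03%). The Zbtb33 site occurred in 3.68% (3.21 to 4.21%), 2.61% (1.95 to 3.49%) and 1.25% (0.830 to 1.89%), where the intervals of the first and the second group overlap and that of the last lies below both. The Nrf1 core, at 6.97%, 7.25% and 4.34%, was lower in the last group only. The CRE was more frequent with a peak in all 4 lists than with a peak in fewer, at 5.28% (4.72 to 5.90%) against 2.38% (1.75 to 3.22%). It stood at 1.94% (1.39 to 2.70%) in CpG-rich promoters without a peak. For the E-box, the TATA box, and the AP-1, Tead and forkhead sites the intervals of the 3 groups overlapped. The remaining shares over all promoters were 3.40% for the Nrf1 core, 2.93% for the Yy1 core, 2.45% for the CRE, 7.81% for the E-box, 1.39% for the Zbtb33 site, 6.88% for the AP-1 site (TGANTCA, N being any base), 13.6% for the Tead site (GGAATG) and 3.08% for the forkhead site (TGTTTAC). A match says only that these letters are present.

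**Figure D1:**
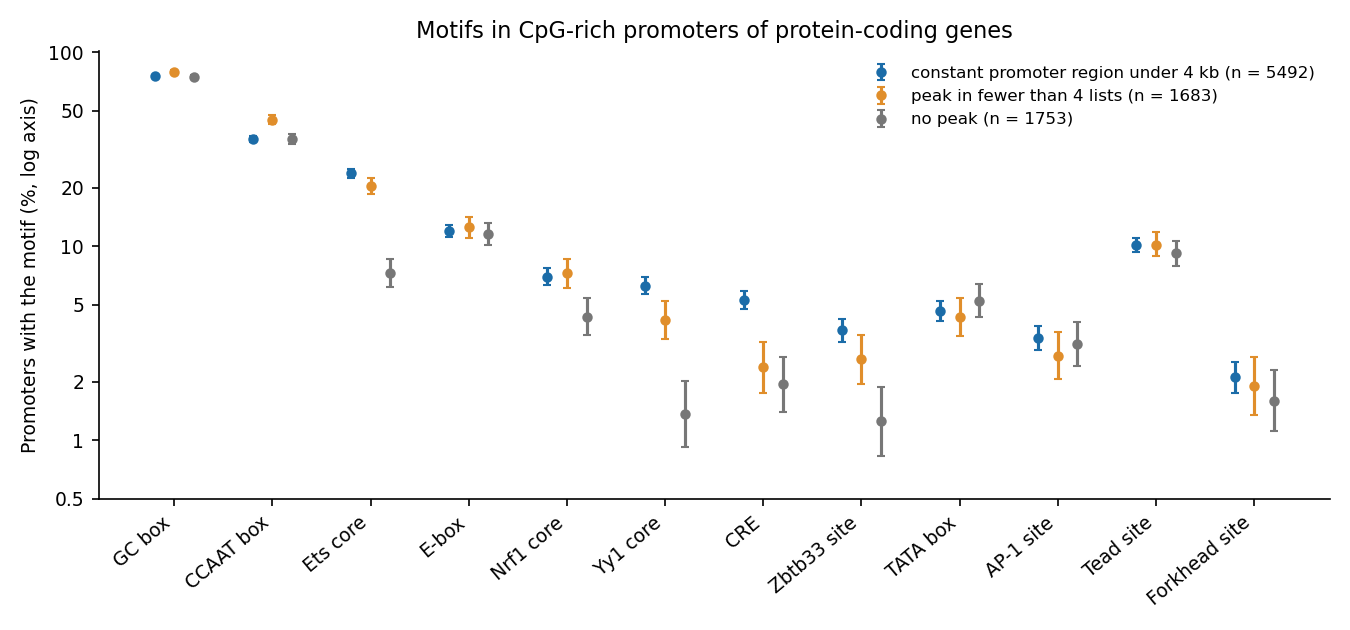
Share of CpG-rich promoters that hold each of 12 motifs (vertical log axis, %), for genes with a constant promoter region under 4 kb, genes with a peak in fewer than 4 lists and genes without a peak; bars are Wilson 95% intervals. The Ets core and the Yy1 core fall from the first group to the last, from 23.7% to 7.30% and from 6.26% to 1.37%, while the GC box stays between 74.5% and 79.0%.

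The regions had a median width of 1716 bp (middle 50% from 1332 to 2179 bp, range 551 to 3998 bp) and covered 14.1 Mb in total. Constant distal regions were as wide, with a median of 1740 bp, whereas partial promoter regions had a median of 821 bp. Partial regions merge peaks of fewer lists by the rule, which leaves less to join, and the part of this in their width was not tested. The sequence of the regions set them apart from distal ones. CpG-rich sequence made up 63.4% of them (62.3 to 64.4%) against 2.81% of constant distal regions (2.37 to 3.34%). Of broad promoter regions 65 of 296 were CpG-rich (22.0%), and of partial promoter regions 41.0% (39.6 to 42.4%). These shares are over whole regions, which differ in width between the classes. Counted by gene, CpG content was read at the gene start and a region at any TSS of the gene. Of 9058 genes with a CpG-rich promoter 5492 had a short constant region (60.6%, 59.6 to 61.6%), against 2422 of 12697 other genes (19.1%, 18.4 to 19.8%). A further 1753 CpG-rich promoters (19.4%) had no peak in any list.

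**Figure D2:**
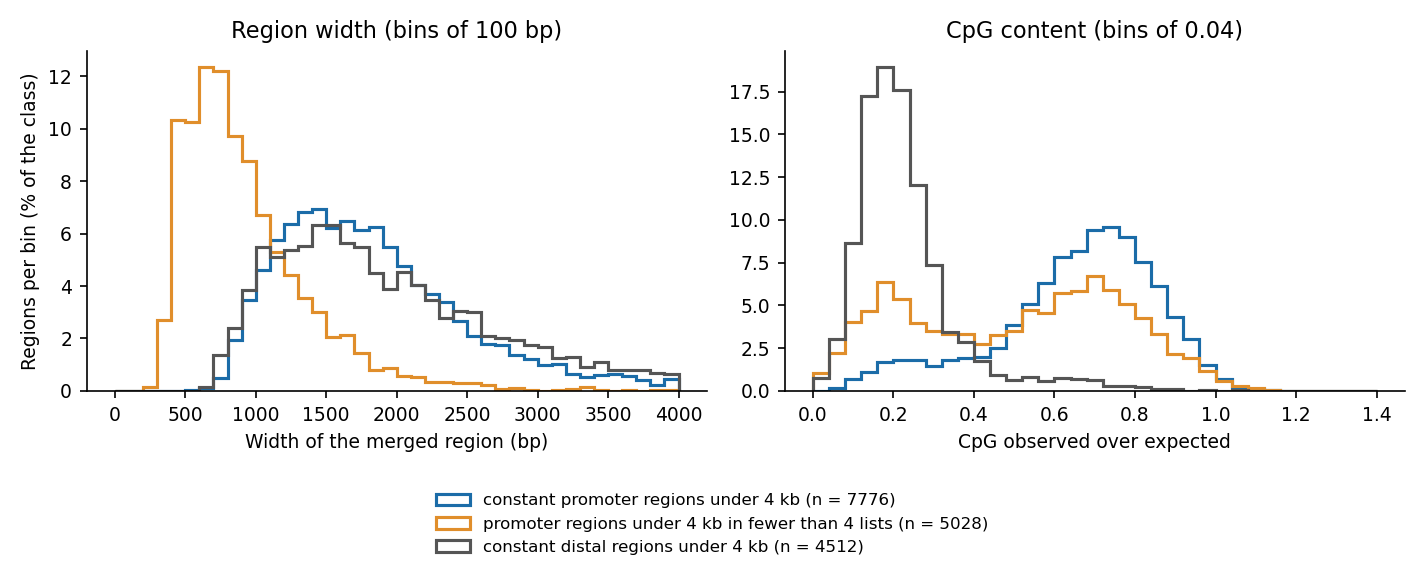
Width (left, horizontal axis in bp) and CpG observed over expected ratio (right), as % of the regions of each class. Constant promoter regions under 4 kb share their width range with constant distal regions, with medians of 1716 and 1740 bp, but have a median CpG ratio of 0.686 against 0.203.

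The bases covered in all lists made up most of the width of the median region. A median of 1054 bp per region was covered in every list, or 66.3% of the merged width, against 51.4% in constant distal regions and 64.4% in broad promoter regions. A TSS lay inside 7451 regions (95.8%), and inside the bases covered in all lists in 6677 (85.9%, 85.1 to 86.6%). The other regions only reach into the 1 kb window. A single peak in every list was found in 6156 regions. Between the DMSO lists of the lines, the edges of these peaks were a median of 102 bp and 104 bp apart, and the median ratio of their widths was 1.00 (0.999 to 1.01).

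Peaks in these regions made up 31.6%, 33.3%, 28.2% and 43.9% of the peaks of the lists. The share was largest in Tnm2 with UNC0638, which is also the shortest list with 18789 peaks, against 24592 to 30631 in the others. Peaks were ranked by the caller's score within their own list, as a percentile from 0 to 100. The best peak of a region stood at a median percentile of 81.2, 78.1, 81.4 and 68.4. Distal constant regions stood lower, at 59.0, 58.8, 69.5 and 52.5, and broad promoter regions higher, at 95.1, 96.3, 95.9 and 92.9. Weak peaks were not spread evenly over the lists. The best score was under 100 in 265, 297 and 261 regions of the first 3 lists, and in 1683 regions (21.6%) of Tnm2 with UNC0638. Scores of 3100 or more, where the caller's values pile up, were found in 478, 277, 142 and 6 regions.

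The lowest of the 4 percentiles was taken as the strength of a region. The 10 strongest regions all reached the 98.8th percentile, which the CK1750 DMSO peaks with a score of 3100 share, so their order is set by the other lists. They lay at the starts of Stam2 (endosomal sorting), Rbm33 (an RNA-binding protein), Maip1 with Tyw5, Cpsf7 (pre-mRNA 3′ end cleavage) with Sdhaf2 (assembly of succinate dehydrogenase), Cox20 (assembly of cytochrome oxidase), Nup205 (nuclear pore), Kcmf1 (a ubiquitin ligase), Ino80d (chromatin remodelling), Lrp6 (a Wnt co-receptor) and Casd1 (sialic acid acetylation). All 10 were rich in CpG, and their widths ran from 1652 to 2946 bp. The Kcmf1 region (chr6:72898298-72901243) stood at percentiles of 98.8, 99.0, 99.6 and 100, and the Stam2 region (chr2:52741361-52743057) at 98.8, 100, 100 and 99.5. The 5 weakest regions had 1 or more peaks at the cutoff of the caller, a score of 50. At Pfn2, which encodes an actin-binding profilin, the best peak stood at percentiles of 52.4, 47.0, 54.7 and 0.0452. At Atp6v0e, a subunit of the proton pump of lysosomes, it stood at 44.2, 35.7, 0.0816 and 51.1. These regions are constant by a narrow margin, each with a middling rank in some lists and the lowest rank in another.

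Strength went with sequence and with gene type. Of the 1944 strongest regions 78.4% were CpG-rich (76.5 to 80.2%), and of the 1944 weakest 51.5% (49.3 to 53.8%). The median width was 2149 bp in the former and 1328 bp in the latter, and width and score are read from the same peaks. Regions without a protein-coding TSS made up 4.53% of the strongest (3.69 to 5.54%) and 11.5% of the weakest (10.2 to 13.0%). Among the motifs, median strength was 75.8 for genes with the Zbtb33 site and 66.7 without it, 74.0 with and 66.7 without the CRE, and 73.7 with and 66.7 without the Yy1 core. It was 63.1 with and 69.4 without the CCAAT box. These were the largest differences among the 12 motifs, and none was tested. For the Ets core, median strength was 66.5 with and 67.0 without it, and for the GC box 67.6 and 66.2.

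A start of 1 protein-coding gene was found in the windows of 6228 regions (80.1%), starts of 2 genes in 916 and of 3 or more in 42. No protein-coding start was found for 590 regions (7.59%, 7.02 to 8.20%), of which 247 met the start of a lincRNA, 73 that of an antisense RNA, 36 that of a miRNA and 38 that of an snRNA. The strongest of these, named after their values were seen, include a region of chromosome 10 with the starts of D630033A02Rik and Mirlet7i, a gene of the let-7 family of miRNAs. It was 2318 bp wide and stood at percentiles of 98.8, 99.0, 99.6 and 99.2. Divergent pairs, 2 protein-coding genes transcribed away from each other from starts within 1000 bp, were present in 696 regions (8.95%, 8.34 to 9.61%). They were present in 5.03% (4.46 to 5.67%) of partial promoter regions and 2.70% (1.38 to 5.24%) of broad ones. These shares are over all regions of a class, and the classes differ in width. A wider region has more room to meet both starts of a pair.

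The marked stretch extended farther into the gene than upstream of it at unidirectional starts. Around 4432 starts with TSSs on the gene's strand only, a median of 441, 488, 454 and 334 bp was covered within 2 kb upstream, and 914, 966, 909 and 841 bp within 2 kb downstream. More bases were covered downstream than upstream at 83.8%, 84.8%, 82.3% and 83.4% of these starts. Around 1286 starts of divergent pairs the medians were 805, 869, 801 and 720 bp upstream and 812, 852, 790 and 708 bp downstream. These sides are near equal by construction, since most regions enter with both genes of a pair and the downstream side of one gene is the upstream side of its partner. The start itself lay in a peak for 91.3% to 96.6% of unidirectional starts. The share was highest between 200 and 300 bp downstream, at 95.5% to 98.6%. At 1 kb it had fallen to between 8.55% and 12.4% upstream and to between 32.2% and 45.8% downstream. On both sides of unidirectional starts the CK1750 UNC0638 list covered the most bases and the Tnm2 UNC0638 list the fewest.

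**Figure D3:**
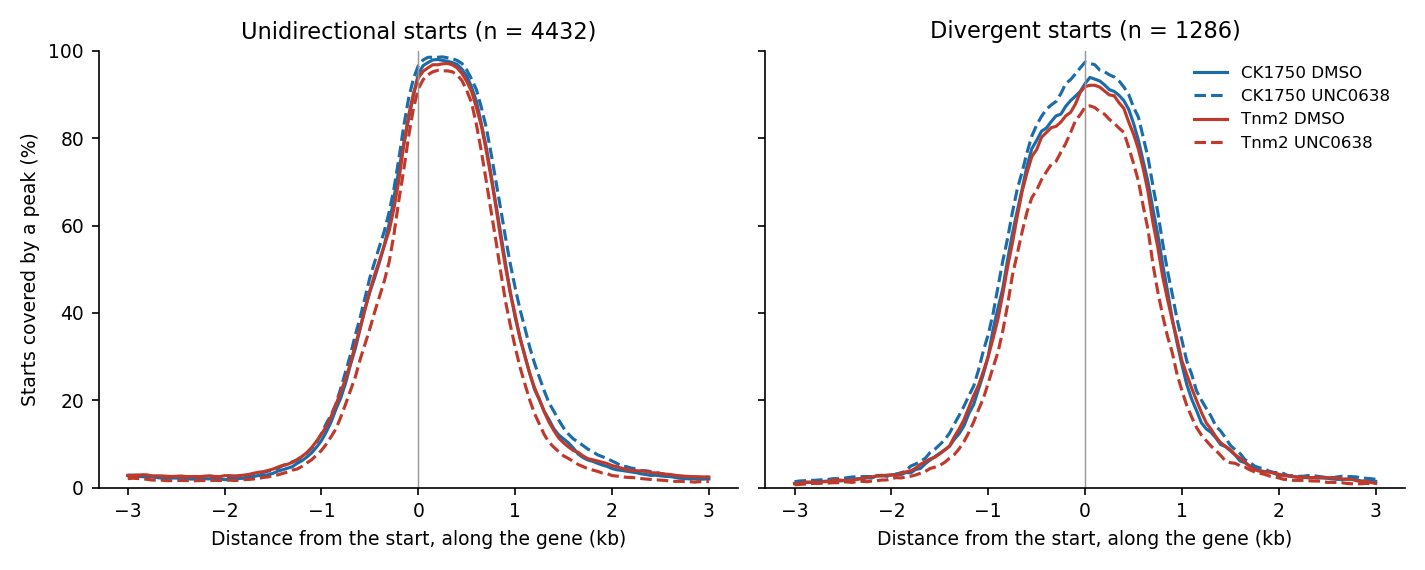
Share of gene starts (vertical axis, %) that lie in a peak at each distance from the start (horizontal axis, kb, positive into the gene), for 4432 unidirectional and 1286 divergent starts in short constant promoter regions; each line is 1 peak list. Coverage at 1 kb downstream of unidirectional starts is 32.2% to 45.8% against 8.55% to 12.4% at 1 kb upstream. The curves of divergent starts count both genes of most pairs, which makes them near symmetric.

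Gene lists for the machinery that most cells need were then read against the 36.4% of all protein-coding genes. Of genes with a CpG-rich promoter 60.6% had such a region, and the lists were not matched for CpG content. These lists were drawn up with results of these data known. Cytosolic ribosomal proteins had the highest share among lists of over 20 genes. Of 82 genes of cytosolic ribosomal proteins, 76 had a short constant region (92.7%, 84.9 to 96.6%). The genes Rplp1, Rpl14 and Rps21, had a peak in all lists but that of Tnm2 with UNC0638, and the 3 without a peak (Rpl3l, Rpl10l and Rpl39l) are paralogues with tissue-restricted use. The strongest was Rps14, at percentiles of 97.7, 98.2, 98.9 and 98.7, followed by Rpl19 at 97.4, 97.6, 99.1 and 98.6. Translation initiation factors had a region at 40 of 50 genes, led by Eif3d at 98.8, 99.0, 99.4 and 99.3, and aminoacyl-tRNA synthetases at 27 of 36 (75.0%), led by Eprs at 96.6, 98.0, 96.4 and 95.9.

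Among genes of the mitochondrion, the respiratory chain and ATP synthase had a region at 62 of 74 genes (83.8%, 73.8 to 90.5%), and mitochondrial ribosomal proteins at 55 of 78 (70.5%, 59.6 to 79.5%), with a peak in fewer than 4 lists at 21 more. Uqcrh, a subunit of complex III, stood at percentiles of 97.7, 97.8, 99.3 and 99.1. Mrpl11, of the large mitochondrial ribosomal subunit, stood at 93.8, 92.0, 98.1 and 97.6. The Ets core was present at 18 of the 55 mitochondrial ribosomal genes (32.7%, 21.8 to 45.9%) and at 19 of the 76 cytosolic ones (16.6 to 35.8%), against 19.5% of all genes with such a region. The Zbtb33 site was present at 11 of the 76 cytosolic ribosomal genes (14.5%, 8.28 to 24.1%), against 2.82%.

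In protein folding and turnover, chaperonin and heat shock genes had a region at 26 of 29 (89.7%), autophagy genes at 34 of 38 (89.5%) and proteasome subunits at 37 of 49 (75.5%). Hspa9, the mitochondrial Hsp70, stood at percentiles of 98.8, 99.0, 99.6 and 99.4. Hspa1a and Hspa1b, the stress-inducible Hsp70 genes, had a peak in fewer than 4 lists. Atg12, a ubiquitin-like protein of autophagy, stood at 97.0, 97.0, 98.1 and 98.5, and Psmd1 of the proteasome cap at 95.8, 95.5, 97.7 and 98.1. Of the 5 proteasome genes without a peak, Psmb8 and Psmb9 encode interferon-inducible subunits, and Psma8 and Psmb11 encode subunits used in testis and thymus.

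In the nucleus, spliceosome genes had a region at 38 of 46 (82.6%), RNA polymerase II and Mediator at 29 of 43 (67.4%), DNA repair at 31 of 45 (68.9%) and Zfp genes, a large family of zinc finger proteins, at 232 of 391 (59.3%, 54.4 to 64.1%). Srsf11, a splicing factor, stood at percentiles of 98.8, 99.0, 99.3 and 98.6. Polr2m, a subunit that joins RNA polymerase II, stood at 98.8, 99.0, 98.7 and 97.8. Genes used in part of the cell cycle had lower shares. DNA replication genes had a region at 19 of 44 (43.2%, 29.7 to 57.8%) and mitosis genes at 18 of 42 (42.9%, 29.1 to 57.8%), intervals that include the 36.4% of all genes. A further 19 and 17 had a peak in fewer than 4 lists, among them Pcna, the replication clamp, and Top2a, a topoisomerase, each lacking it in Tnm2 with UNC0638 alone. Ccnb1 and Cdk1, the mitotic cyclin and its kinase, had peaks in both CK1750 lists only. Orc6, of the origin recognition complex, led the replication list at 90.3, 93.0, 90.4 and 87.6. The CCAAT box was present at 13 of the 18 mitosis genes with a region (72.2%, 49.1 to 87.5%), against 36.8% of all genes with one. The Ets core was present at 11 of the 19 replication genes (57.9%, 36.3 to 76.9%), against 19.5%.

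The list named writers, erasers and readers of H3K27 acetylation also held acetyltransferase genes other than those of p300 and Cbp, such as Kat5. Its genes had a region at 23 of 29 (79.3%, 61.6 to 90.2%). Their median strength of 83.0 was close to the 82.8 of the cytosolic ribosomal genes. The best peaks of Ep300 (3221 bp wide) stood at percentiles of 98.8, 99.0, 99.6 and 99.8. Crebbp, which encodes Cbp, stood at 98.8, 99.0, 99.6 and 99.0. Brd2 had a constant region too wide to be counted (5415 bp), and the deacetylase genes Hdac1 and Hdac8 had no peak. All 13 genes of the list of G9a, Glp and H3K9 demethylases had a short constant region (77.2 to 100%). Ehmt2, which encodes G9a, stood at 81.8, 74.9, 89.9 and 75.2, and Ehmt1, which encodes Glp, at 75.4, 76.3, 81.0 and 73.1. Phf2 was the strongest of the list, at 98.8, 99.0, 99.6 and 99.6. At Ehmt2 the peaks covered 1902, 2044, 2028 and 1954 bp, so that the gene of the inhibited enzyme was marked over a similar width in every list. At Ehmt1 they covered 1106, 1684, 1308 and 1298 bp, with CK1750 UNC0638 the widest.

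Tissue-restricted gene families were almost without such regions. Olfactory receptors had 2 of 1092 genes (0.183%, 0.0502 to 0.665%), with 1084 lacking any peak. Neurotransmitter receptors and channels had 3 of 99 (Grik5, Grina and Chrnb1), and collagens 3 of 44. Col4a1 and Col4a2, the basement membrane collagens, share 1 region of 2994 bp, at percentiles of 94.5, 95.4, 90.0 and 80.8. A list of 10 genes that the study tied to loss of G9a activity, chosen in part on these cells, held no gene with a short constant region, and 8 of the 10 had no peak within 1 kb of a TSS, against 48.3% of all genes. Of the others, Ly6a, which encodes the surface protein Sca-1, had a broad region of 6188 bp with best scores of 2045, 1111, 146 and 52.0, which are not comparable between lists. Mmp13, a collagenase, had a peak in Tnm2 with UNC0638 alone. The score of that peak was 51.28, just above the cutoff of the caller, and the difference between lists was not tested.

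**Figure D4:**
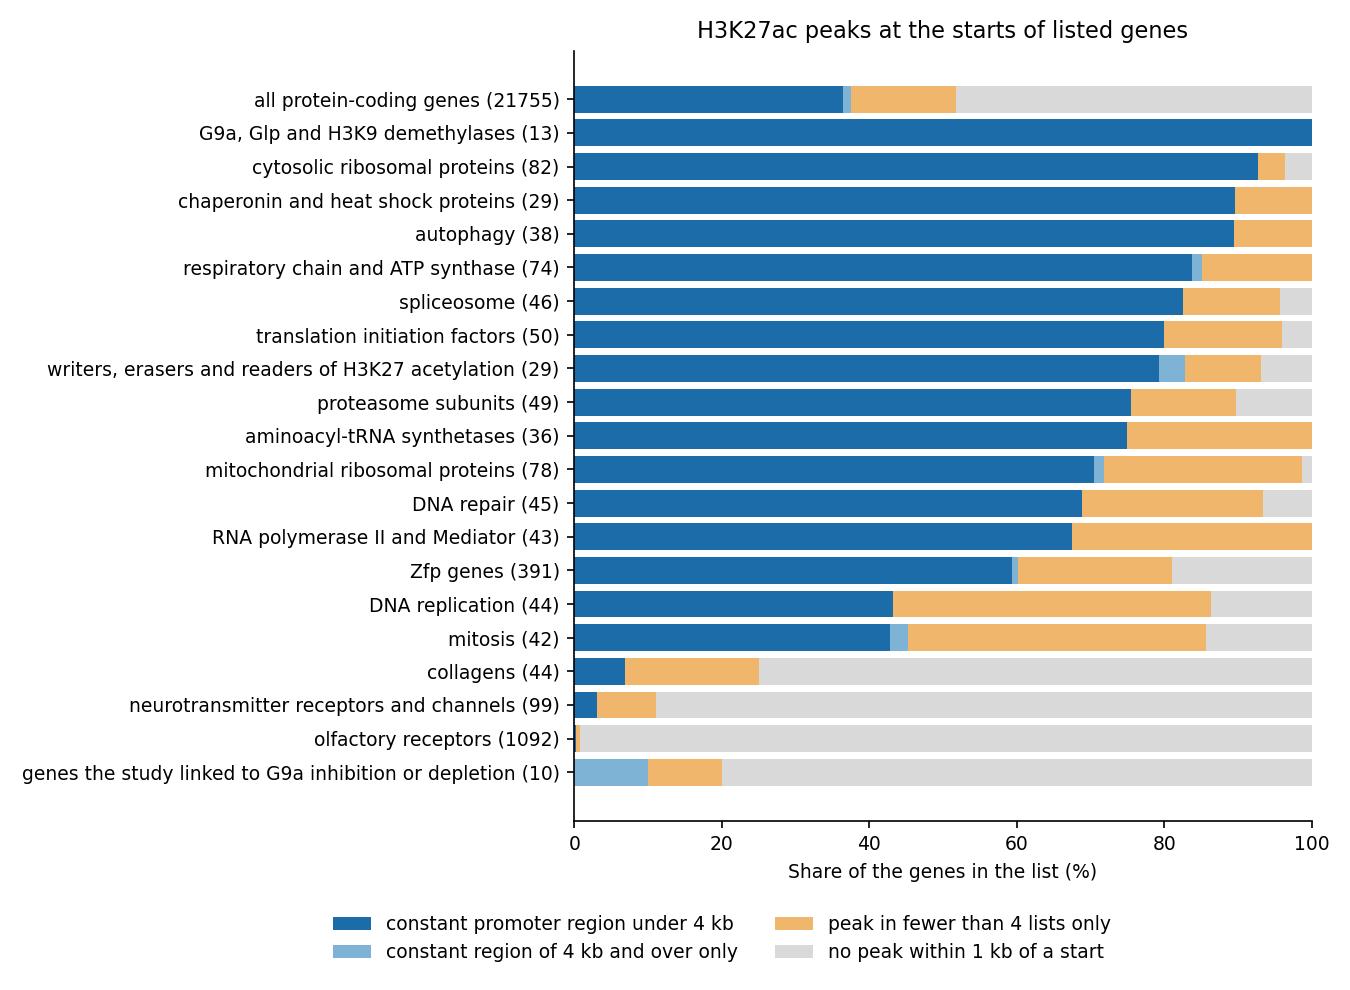
Share of the genes in each list (horizontal axis, %; number of genes in parentheses) with a constant promoter region under 4 kb, a constant region of 4 kb and over only, a peak in fewer than 4 lists only, or no peak within 1 kb of a TSS. Cytosolic ribosomal genes reach 92.7% and olfactory receptors 0.183%, against 36.4% of all protein-coding genes.

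Markers were read the same way to check the labelled cell type. Of 16 markers of lung epithelium and adenocarcinoma, 5 had a short constant region, 2 a broad one, 4 a peak in fewer than 4 lists and 5 no peak. Nkx2-1, the transcription factor that defines lung epithelium, stood at percentiles of 90.6, 88.0, 96.3 and 97.5. Foxa1, a factor of the same lineage, stood at 94.2, 90.4, 95.6 and 93.0. Cdh1 and Krt18 were also marked in all lists. The surfactant genes Sftpc, Sftpa1 and Sftpd had no peak, and Sftpb, Krt7, Cldn18 and Muc1 had a peak in fewer than 4 lists. The 5 markers without a peak were not surfactant genes alone, since they also included genes among Krt19, Epcam and Cldn4. All 8 leukocyte and all 6 endothelial markers had no peak in any list. Of 8 fibroblast markers, Fn1 had a short constant region, Vim a broad one and Col1a1 a peak in fewer than 4 lists. The markers Scgb1a1 of airway cells and Aqp5 of alveolar type 1 cells had peaks, and the other 7 of that list had none.

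The regions were last compared between UNC0638 and DMSO within each line by the number of bases that peaks covered. Scores depend on depth and were not compared. In CK1750 the covered width was larger with UNC0638, by a median of 5.97% (5.60 to 6.43%), a ratio of 1.06. In Tnm2 it was smaller, with a median change of -7.50% (-7.92 to -6.95%), a ratio of 0.925. The ratio was over 1 in 66% of the regions in CK1750 and in 32.8% in Tnm2. Each is a comparison of 1 list with 1 list, and the part that depth had in the result was not tested. The medians over all peaks of a list, 835, 1048, 831 and 1040 bp, were larger with the inhibitor in either line. Peaks inside the regions had medians of 1256, 1437, 1266 and 1167 bp, so that in Tnm2 they went the other way. For the 6156 regions with a single peak in each list the median ratios were 1.06 (1.05 to 1.06) and 0.937 (0.932 to 0.942).

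Most regions kept their width within 1.5-fold in both lines, at 6313 of 7776, as did 9617 of all 12885 constant regions. In CK1750, 473 were at least 1.5-fold wider with UNC0638 (6.08%), against 10.8% of all regions with a peak in every list, and 119 were at least 1.5-fold narrower (1.53%), against 1.98%. In Tnm2, 151 were wider (1.94%), against 3.28%, and 860 narrower (11.1%), against 12.5%. Each of these shares was below that of all constant regions. Among constant distal regions 18.5% (17.4 to 19.7%) were wider in CK1750, and the interval for the short promoter regions was 5.57 to 6.64%.

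Few regions changed past 1.5-fold in the same direction in both lines. Of the 7776 regions 35 were wider in both, against 102 of all 12885 constant regions (0.792%). Narrower in both were 20, against 46 of all constant regions (0.357%). Agreement between the lines was not tested. At Pygb, which encodes brain glycogen phosphorylase, the peaks covered 486 and 1150 bp in CK1750 and 370 and 979 bp in Tnm2, DMSO first. At Cnnm4, a magnesium transporter, they covered 803 and 1653 bp in CK1750 and 580 and 1357 bp in Tnm2. The others of the 5 most widened were Gm44930, Gm25973 and AI467606. Among the narrowed, the region at Axl, a receptor tyrosine kinase, covered 1744 and 866 bp in CK1750 and 1670 and 782 bp in Tnm2. At Wbp1l it covered 1930 and 629 bp in CK1750 and 2343 and 898 bp in Tnm2, and Fchsd2, Phospho1 and Gbp9, an interferon-inducible GTPase, complete the 5 most narrowed. All 10 were weak, with ranks by strength from 6185 to 7627 of 7776, and 3 of them (Pygb, Cnnm4 and Fchsd2) were rich in CpG. At Gbp9 no base was covered in all 4 lists.

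**Figure D5:**
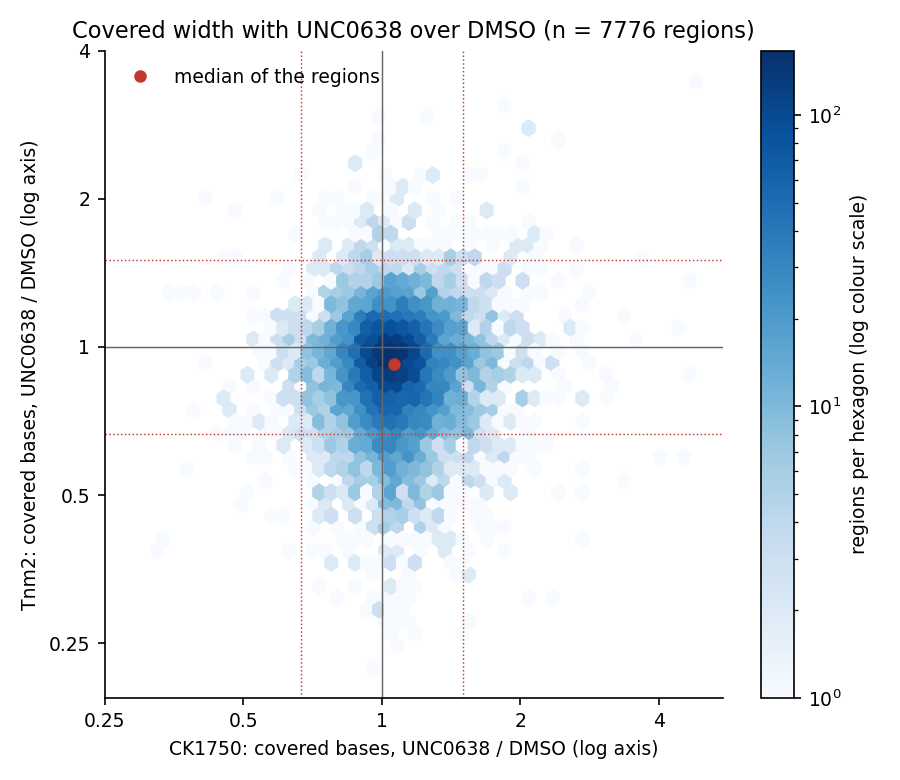
Bases covered by peaks with UNC0638 over DMSO in CK1750 (horizontal log axis) and in Tnm2 (vertical log axis) for the 7776 regions; colour gives regions per hexagon on a log scale, dotted lines mark 1.5-fold and the red point is the median. The median lies at 1.06 in CK1750 and 0.925 in Tnm2, and 35 regions lie past 1.5-fold wider and 20 past 1.5-fold narrower in both lines.

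By list, the lists of cell machinery named here had a median ratio over 1 in CK1750 and under 1 in Tnm2, whereas lists with few regions went other ways, such as the 3 collagen genes at 0.996 and 0.698 and the 3 neurotransmitter receptor and channel genes at 1.62 and 1.10. The median ratio for cytosolic ribosomal genes was 1.11 in CK1750 and 0.926 in Tnm2, with 4 genes wider and 0 narrower past 1.5-fold in CK1750, and 2 wider and 9 narrower in Tnm2. For the respiratory chain it was 1.07 and 0.882, and for the list of writers, erasers and readers of H3K27 acetylation 1.09 and 0.877. Spliceosome genes were nearest to no change, at 1.02 and 0.996. These medians lie around those of all the regions, 1.06 and 0.925, and no list was tested.

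The limits of the choice can be seen at its edges. Just under 4000 bp were the regions at Lima1 (3998 bp, an actin-binding protein) and Id3 (3997 bp, an inhibitor of helix-loop-helix factors). Just over it were those at D930028M14Rik (4000 bp) and Vegfa (4008 bp, the endothelial growth factor). Among the 5028 partial promoter regions, 1483 had a peak in all lists but that of Tnm2 with UNC0638, more than in any other combination of lists. The next were 803 regions with a peak in Tnm2 DMSO alone and 633 with a peak in CK1750 DMSO alone.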

How the data were processed

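Chromatin immunoprecipitation libraries were sequenced on a NextSeq 500, aligned to mm10 with Bowtie2, handled with SAMtools, and peaks were called with MACS 1.4.2, as the study's methods and the submitters' processing notes state. The authors deposited 1 merged H3K27ac peak list per group, in which each peak carries a score, made by the caller from the negative log10 of its P value, with none below 50, which stands for a P value of 1e-05. The libraries behind each list and the control used in peak calling are not given in the sources used here. The 12 H3K9me2 and 9 input samples were not analysed here.

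Intervals were merged and classed against 75451 TSS positions of GENCODE M21 (basic set), and sequence was read from the GRCm38.p6 RefSeq genome (Python 3.11.15, numpy 2.4.6, scipy 1.17.1, matplotlib 3.10.9). Shares carry Wilson 95% intervals and medians order-statistic intervals. A width ratio is the bases covered with UNC0638 over those with DMSO. Scores were ranked within a list only. With 1 list per group nothing was tested between groups. The regions and gene lists were chosen with earlier results of these data known. The genes named are up to 4 of the strongest of each list and its genes without a peak, the 10 strongest and 5 weakest regions, the 5 most changed in both lines in each direction and those nearest the width limit. Ehmt1 and Ehmt2 (the inhibitor's targets), Mirlet7i, and the genes named for a peak in fewer than 4 lists or a broad region were added after their values were seen. The region finding was tested on simulated peaks. The alternatives tried were score and width limits, other TSS sets and distances, lists cut to 18789 peaks each and joining of peaks within 500 bp.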

Additional observations from a re-analysis of the deposited data

Results flagged for a closer look

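The median covered width of the short constant promoter regions moved in opposite directions in the lines. The ratio of UNC0638 over DMSO was 1.06 in CK1750 and 0.925 in Tnm2, each from 1 merged list over 1 merged list. The difference between the lines was not tested.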

How the results depend on the processing

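No paired analysis was possible because each group is 1 merged peak list with no replicate columns, and for the same reason no replicate could be left out. The regions were found again under 10 other settings, of which 8 were planned and 2 (all annotated transcripts, and leaving out the Tnm2 UNC0638 list) were chosen after seeing the data. They numbered from 5919 to 9290, and no direction reversed. Of 59 values, 41 moved by less than the counting interval or, for counts, stayed within 1.5-fold, and 18 moved further. The 36.4% of protein-coding genes with a short constant region became 28.3% when only scores from 100 up were used, 34.5% when lists were cut to the same length, 37.4% with a TSS distance of 2500 bp, 34.5% with widths under 3000 bp, 35.7% with peaks within 500 bp joined, 37.3% with all transcripts and 42.4% without the Tnm2 UNC0638 list. The Tnm2 width ratio of 0.925 became 0.936 with scores from 100 up, 0.933 with lists of the same length and 0.920 with peaks joined. The CpG-rich share of 63.4% became 67.0% with scores from 100 up, 65.3% with lists of the same length, 60.2% with 2500 bp, 64.9% with widths under 3000 bp, 67.1% with protein-coding TSSs only and 61.3% with all transcripts. The divergent share of 8.95% became 9.69% with protein-coding TSSs only and 10.3% with all transcripts. Depth is unknown, and a region whose peak falls just short of the caller's cutoff in 1 list is not counted as constant.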

Other observations

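Genes on chromosome X had short constant promoter regions less often than those of any autosome, at 153 of 948 protein-coding genes (16.1%, 13.9 to 18.6%), against 25.4% to 44.5% on the autosomes. With olfactory, vomeronasal and trace amine receptor genes left out, the share was 16.3% (14.1 to 18.8%) on chromosome X and 39.0% over all chromosomes, and the lowest autosome was chromosome 14 with 258 of 860 genes. No peak lay within 1 kb of a TSS for 66% of the remaining X-linked genes, against 44.6% of all.

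Most regions held a single peak in a list, but 839, 391, 811 and 457 were split into 2 or more peaks in the lists of CK1750 and then Tnm2, DMSO first in each line. The gaps had medians of 81, 63, 95.5 and 105 bp. A TSS lay in the gap of 12.6%, 8.18%, 14.4% and 16.0% of the split regions.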
